A study of Carica papaya with 15 samples.

Results

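ACX2 (LOC110818931), MFP2 (LOC110819879) and LACS7 (LOC110815477) are papaya genes named for enzymes that break down fatty acids in peroxisomes. They are 3 of the 20332 genes in the expression table, were chosen from the measured values of these same libraries, and all 3 passed the filter on low values. Their differences between groups are therefore given as descriptions, with no p-value. Pulp RNA of the papaya cultivar "Golden" was sequenced in 15 libraries, 3 in each of 5 groups. T12h was fruit held for 12 h in a closed chamber with ethylene at 100 ppm, then vented with air for 1 h and frozen. T24h was fruit from the same treatment taken at 24 h, thus about 12 h after it left the gas. C12h and C24h were fruit kept for 12 and 24 h without ethylene, and C0h was fruit frozen at the start. All groups were commercial fruit bought before the climacteric, peeled and freed of seeds. Pools of at least 5 fruit, drawn from 1 of 3 harvests (A, B and C), made up the libraries. A harvest gave 1 library to each group, so that the pools are the replicates.

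Fatty acids are broken down in plants by beta-oxidation in the peroxisome, a small organelle with a single membrane. A long-chain fatty acid is first joined to coenzyme A, then oxidized, hydrated, oxidized again and cut by a thiolase, which releases acetyl-CoA and leaves a shorter chain for another round. In Arabidopsis, LACS7 is a peroxisomal synthetase that makes the acyl-CoA, ACX2 is an acyl-CoA oxidase with a preference for long chains that carries out the first oxidation and releases hydrogen peroxide, and MFP2 is a multifunctional protein that carries out the hydration and the following dehydrogenation. The pathway is best known from seedlings that live on stored oil, and it also shortens precursors of jasmonate and of auxin. Ripening fruit is another setting in which membrane and storage lipids are turned over. These roles are known from Arabidopsis and were not measured in papaya here.

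Values are read counts per gene scaled by the size factor of their library, and are called normalized counts. They are not corrected for transcript length, so levels are compared between groups for each gene and not between genes. Recovered reads ranged from 7999275 to 12542678 per library in the 13 libraries where they could be used. Library C24h B stood apart from C24h A and C24h C and lay near the ethylene-treated libraries in ACX2, MFP2 and several other genes of the pathway, and results that rest on it are given with and without it. Summed normalized counts also moved with treatment, at 10870000 to 13280000 in T12h and T24h, against 8314000 to 9593000 in the controls other than C24h B and 12070000 in C24h B. What part this difference in totals had in the results was tested only by scaling all libraries to an equal total. Under that scaling the median log2 fold change of all tested genes was -0.34 between T12h and C12h and -0.33 between T24h and C24h, in place of -0.01 and 0. In RNA from whole pulp, fewer cells of a type and less RNA per cell cannot be told apart.

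ACX2, the oxidase of the first step, had the widest relative range of the 3 genes. ACX2 had 4021, 3812 and 3735 normalized counts in T12h A, B and C, against 747.7, 1272 and 602.3 in C12h A, B and C. Every T12h library was above every C12h library, and the T12h libraries lay close together. At 24 h, ACX2 had 4519, 2501 and 4385 normalized counts in T24h A, B and C, against 1163, 4539 and 826 in C24h A, B and C. The control library C24h B had more ACX2 than any of the treated libraries, while C24h A and C24h C were below all of them. The start fruit had 1608, 1095 and 704.4 normalized counts in C0h A, B and C, well below the T12h and T24h libraries.

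Between T12h and C12h, the log2 fold change of ACX2 was 2.21 (SE 0.51), which is 4.64-fold. Within harvests the ratio of T12h over C12h was 5.38 in harvest A, 3.00 in harvest B and 6.20 in harvest C. Treated fruit was thus above its control in each of the 3 harvests, with the smallest ratio in harvest B. Against the start fruit, ACX2 was 3.59-fold higher in T12h (log2 fold change 1.84, SE 0.51) and 3.42-fold higher in T24h (1.77, SE 0.51). Removal of the gas was followed by little change in the mean, with 3802 ± 1128 normalized counts in T24h and 3856 ± 147.9 in T12h (SD, n = 3 each, log2 fold change -0.07, SE 0.51). T24h had the larger spread, with T24h B at 0.562 times the mean of T24h A and T24h C.

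Between T24h and C24h, the log2 fold change of ACX2 was 1.17 (SE 0.51) and the groups overlapped. The ratio of T24h over C24h was 3.88 in harvest A and 5.31 in harvest C, but 0.551 in harvest B. In that harvest the control pool held 4.56 times the mean of the other C24h pools and the treated pool was the lowest of its group, so both pools contribute to the reversed ratio. Without C24h B the log2 fold change was 1.91 (SE 0.37), which is 3.74-fold. Storage without ethylene left ACX2 at 873.9 ± 352.2 normalized counts in C12h, against 1136 ± 453.1 in C0h (SD, n = 3 each), with a log2 fold change of -0.37 (SE 0.51) and overlapping groups. In C24h the mean was 2176 ± 2053 (SD, n = 3), and the log2 fold change against C0h was 0.61 (SE 0.51) with C24h B and -0.13 (SE 0.37) without it.

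Ordered by mean, the levels of ACX2 ran from C12h through C0h, C24h and T24h to T12h. Neighbours in this order overlapped in every case, and the separation lay between the treated libraries and the controls other than C24h B. Counting error was small beside these differences, at 1.62 to 3.67% for the 742 to 3802 reads of the gene in the 13 libraries with recovered reads.

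**Figure D1:**
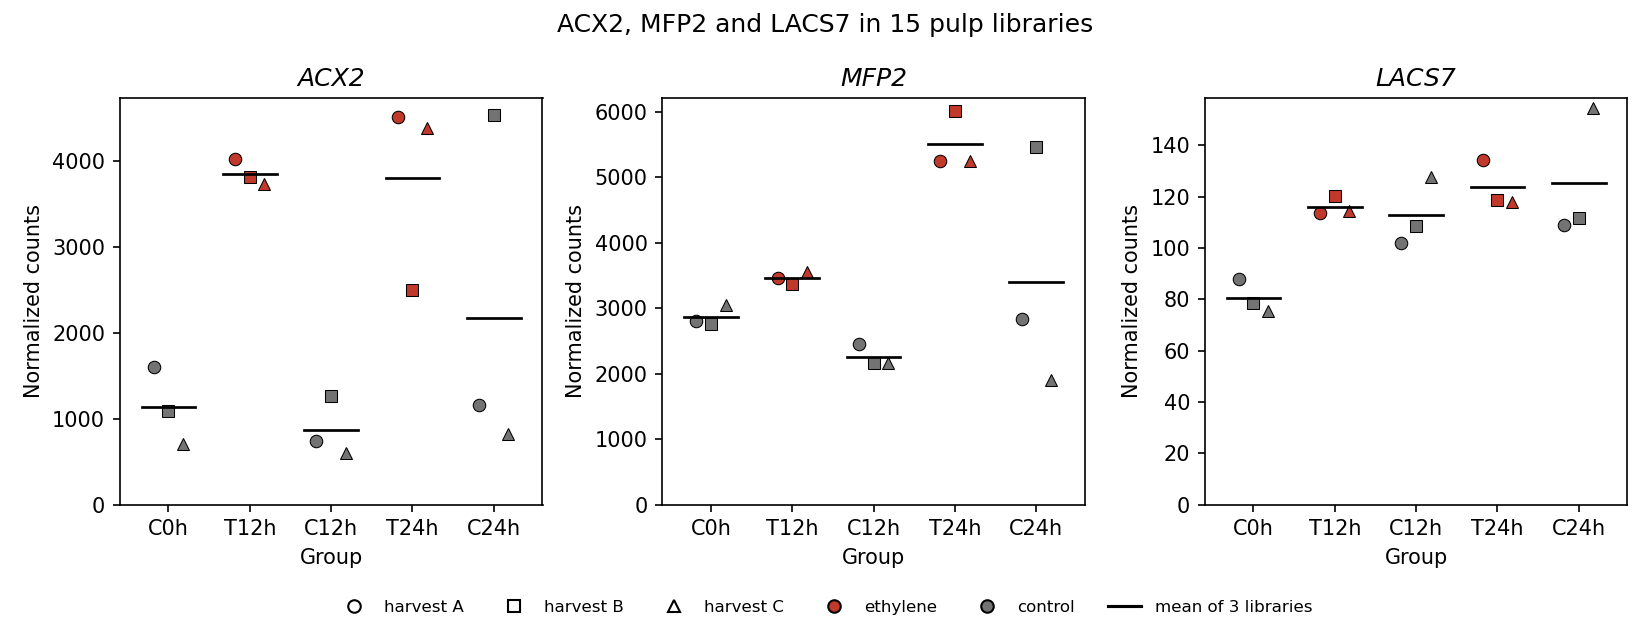
Normalized counts (linear axes from 0) of ACX2, MFP2 and LACS7 in each of the 15 libraries, by group on the horizontal axis. Symbols mark harvests, red marks ethylene and grey marks controls, and bars are means of 3 libraries. The square of C24h lies at 4539 for ACX2 and 5469 for MFP2, above the other 2 libraries of its group, and all libraries of LACS7 outside C0h lie above 100 while C0h stays below 90.

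MFP2, which acts after the oxidase, moved in the same direction with a smaller change and kept moving after the gas was removed. MFP2 had 3468, 3378 and 3561 normalized counts in T12h A, B and C, against 2456, 2164 and 2167 in C12h A, B and C. The groups did not overlap, and the libraries of each group were within a narrow band. At 24 h, MFP2 had 5247, 6006 and 5253 normalized counts in T24h A, B and C, against 2841, 5469 and 1908 in C24h A, B and C. The treated libraries were the highest of the series except for C24h B, which lay inside their range. The start fruit had 2806, 2754 and 3051 normalized counts in C0h A, B and C, between C12h and T12h.

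Between T12h and C12h, the log2 fold change of MFP2 was 0.62 (SE 0.27), which is 1.54-fold, with ratios of 1.41, 1.56 and 1.64 in harvests A, B and C. It was smaller under other scalings, at 0.19 with quantile normalization and 0.29 with equal library totals. Part of this distance came from the control side. MFP2 averaged 2262 ± 167.8 normalized counts in C12h and 2871 ± 158.7 in C0h (SD, n = 3 each), every C12h library was below every C0h library, and each harvest was lower at 12 h (log2 fold change -0.35, SE 0.27). Against the start fruit, T12h was therefore only 1.21-fold higher (log2 fold change 0.27, SE 0.27). The value for T12h over C0h changed sign with quantile normalization, to -0.16, and was 0.02 with equal library totals, so its direction depended on the scaling.

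The level at 24 h stood out more. MFP2 averaged 5502 ± 436.2 normalized counts in T24h and 3469 ± 91.3 in T12h (SD, n = 3 each), with no overlap, a log2 fold change of 0.66 (SE 0.27) and ratios of 1.51, 1.78 and 1.48 in harvests A, B and C. Against the start fruit T24h was 1.91-fold higher (log2 fold change 0.94, SE 0.27). Between T24h and C24h the log2 fold change was 0.83 (SE 0.27) with overlapping groups, and 1.24 (SE 0.17), or 2.36-fold, without C24h B. The ratio of T24h over C24h was 1.85 in harvest A, 1.1 in harvest B and 2.75 in harvest C. C24h B held 2.30 times the mean of C24h A and C24h C, and the log2 fold change of C24h over C0h was 0.11 (SE 0.27) with that library and -0.30 (SE 0.17) without it.

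Ordered by mean, MFP2 ran from C12h through C0h, C24h and T12h to T24h. C12h and C0h did not overlap, nor did T12h and T24h, while C24h overlapped each other group. In the 13 libraries with recovered reads, 2199 to 4554 reads stood behind its values. MFP2 was among the more abundant transcripts of the pulp, with 97.5% of tested genes at a lower overall mean, and ACX2 had 95.8% of them below it. These percentiles rank normalized counts without regard to length.

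LACS7, which supplies the pathway with acyl-CoA, did not follow the treatment. LACS7 had 113.6, 120.3 and 114.4 normalized counts in T12h A, B and C, against 102, 108.6 and 127.4 in C12h A, B and C. It had 134.3, 118.7 and 117.7 in T24h A, B and C, against 109.1, 111.7 and 154.4 in C24h A, B and C. Treated and control libraries overlapped at both times, and the highest value of the series came from a control. The start fruit had 87.79, 78.4 and 75.57 normalized counts in C0h A, B and C, below all 12 other libraries.

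The log2 fold change of LACS7 was 0.05 (SE 0.18) between T12h and C12h and 0.00 (SE 0.18) between T24h and C24h, where C24h B was inside the range of its group. With equal library totals these values were -0.28 and -0.33, and relative to the median gene under that scaling they were 0.06 and 0.00. The later groups were all higher than the start. Against C0h the log2 fold change of LACS7 was 0.52 in T12h, 0.61 in T24h, 0.48 in C12h and 0.61 in C24h (SE 0.18 each), or 1.39-fold to 1.53-fold, and every library was above its own harvest's C0h library. With equal totals the values for T12h and T24h over C0h were 0.27 and 0.22. Ordered by mean, LACS7 ran from C0h through C12h, T12h and T24h to C24h, and only C0h was separate from its neighbour. The gene was measured on 74 to 178 reads in those 13 libraries, with a counting error of 7.50 to 11.6%. Its spread between pools of a group was 2.03 times the variance of counting alone, against 544 times for ACX2 and 226 times for MFP2 (chi-square per degree of freedom over 13 libraries). These values include C24h B and were not computed without it. For MFP2 the SD was 54.2% of the mean in C24h and 2.63 to 7.93% in the other groups. For ACX2 it was 94.4% in C24h and 3.83 to 40.3% in the others.

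**Figure D2:**
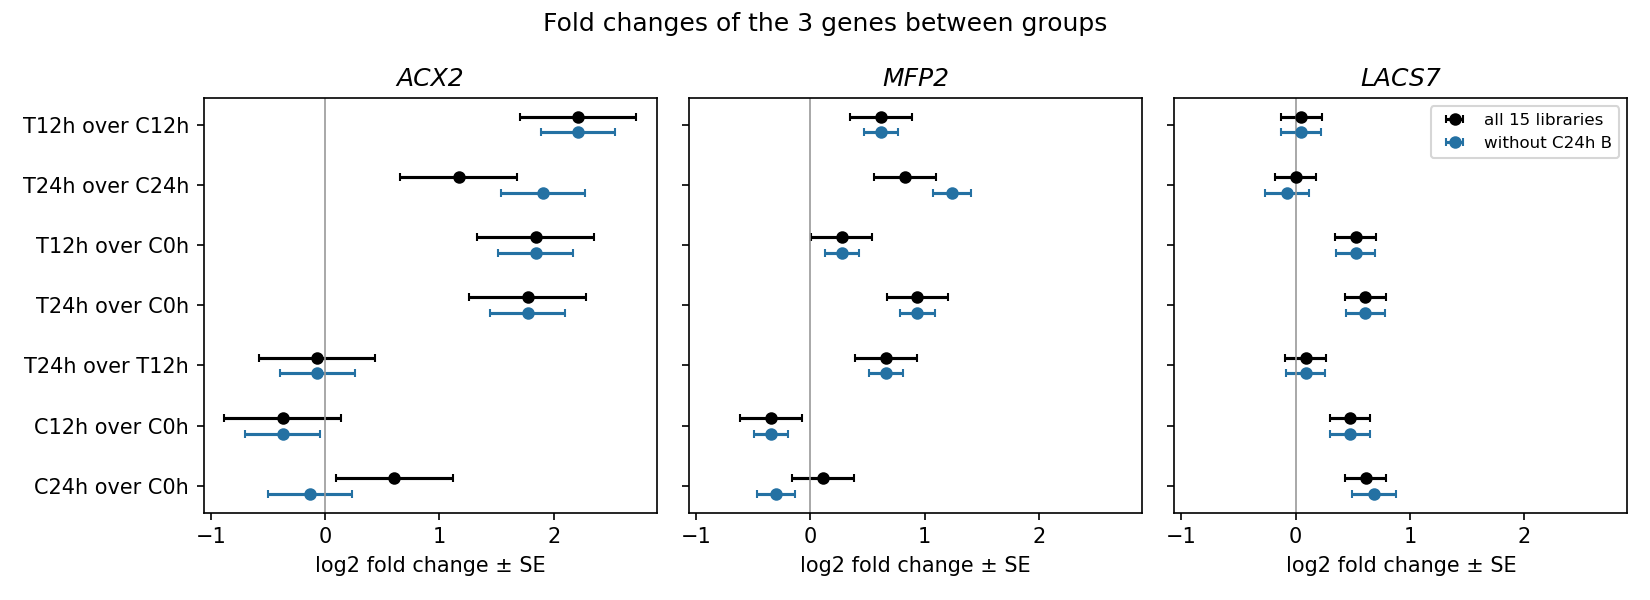
Log2 fold changes with their standard errors (horizontal axis) of ACX2, MFP2 and LACS7 for 7 pairs of groups, the first-named group over the other. Black points use all 15 libraries and blue points leave out C24h B, which moves T24h over C24h of ACX2 from 1.17 to 1.91 and leaves LACS7 near 0 in both ethylene comparisons.

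How common such patterns were among all genes is shown by the 15270 genes tested. T12h did not overlap C12h and was higher for ACX2 and MFP2, as it was for 26.3% of all tested genes. All 3 genes were above C0h without overlap in T12h, as were 25% of tested genes, and in T24h, as were 19.7%. MFP2 alone was higher without overlap in T24h than in T12h, which held for 15.4% of tested genes. Between the controls, LACS7 was higher without overlap in C12h than in C0h, as were 9.73% of tested genes, and in C24h than in C0h, as were 4.62%, and MFP2 was lower in C12h than in C0h, as were 10.4%. Because the 3 genes were chosen with these values known, nothing is read from their shares.

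The ethylene effect at 24 h less that at 12 h was -1.05 (SE 0.72) on the log2 scale for ACX2, 0.21 (SE 0.38) for MFP2 and -0.05 (SE 0.25) for LACS7. Without C24h B these values were -0.31 (SE 0.49) for ACX2, 0.62 (SE 0.23) for MFP2 and -0.12 (SE 0.26) for LACS7. Over the 15 libraries the log2 values of ACX2 and MFP2 had a Pearson r of 0.80 and a Spearman rho of 0.77, and over the 14 without C24h B an r of 0.77 and a rho of 0.74. Once group means were removed, r was 0.69 with C24h B and -0.11 without it, so the relation within groups rested on that library. LACS7 had an r of 0.29 with ACX2 and 0.09 with MFP2 over the 15 libraries, and 0.30 and 0.09 over the 14. Within groups these were -0.31 and -0.65, and -0.06 and -0.84 without C24h B. These values describe libraries that share groups and harvests. Many genes were closer to ACX2 than MFP2 was, which ranked 1628 of 11162 (genes whose mean reached 50 normalized counts), and ACX2 ranked 815 of 11162 for MFP2.

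The genes with a symbol whose log2 values followed each of the 3 most closely over the 15 libraries were found by Pearson r among 2948 such genes with a mean of at least 50. For ACX2 they were TLP-3, RAB8, MTO1, RAB7B and ECT6, with r of 0.99, 0.99, 0.99, 0.98 and 0.98. For MFP2 they were SPPL3, YSL6, APM1, RBL15 and GPDHC1, with r of 0.97, 0.97, 0.97, 0.96 and 0.96. For LACS7 the likeness was weaker, with LOH2 at 0.91, I-2 at 0.90, CHR5 at 0.89, RBP-DR1 at 0.86 and UBC27 at 0.83. None of these 15 genes is on the pathway lists described next.

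The rest of the pathway was read from lists of gene symbols. Of 151 symbols listed for beta-oxidation and its neighbouring pathways, 57 were found in the table besides the 3 genes above and 53 were tested. Between T12h and C12h, 11 of the 53 rose and 6 fell (limma, adjusted p at most 0.05). These are 20.8% and 11.3% of the 53, beside 11.7% of all tested genes that rose and 12.3% that fell. The median log2 fold change of the 53 was 0.03, and that of all tested genes was -0.01. The pathway as listed thus had genes in both directions. The 17 calls became 5 when C12h A was left out, 4 when C12h C was, 8 when T12h B was and 7 when T12h C was. Calls over all tested genes shrank in the same fits. There 1791 genes rose and 1884 fell, and calls in both directions together became 843, 884, 1937 and 1154 in that order. Calls for ECI1, MLS, PEX19-1 and PEX3-1 were kept in all 20 alternatives.

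**Figure D3:**
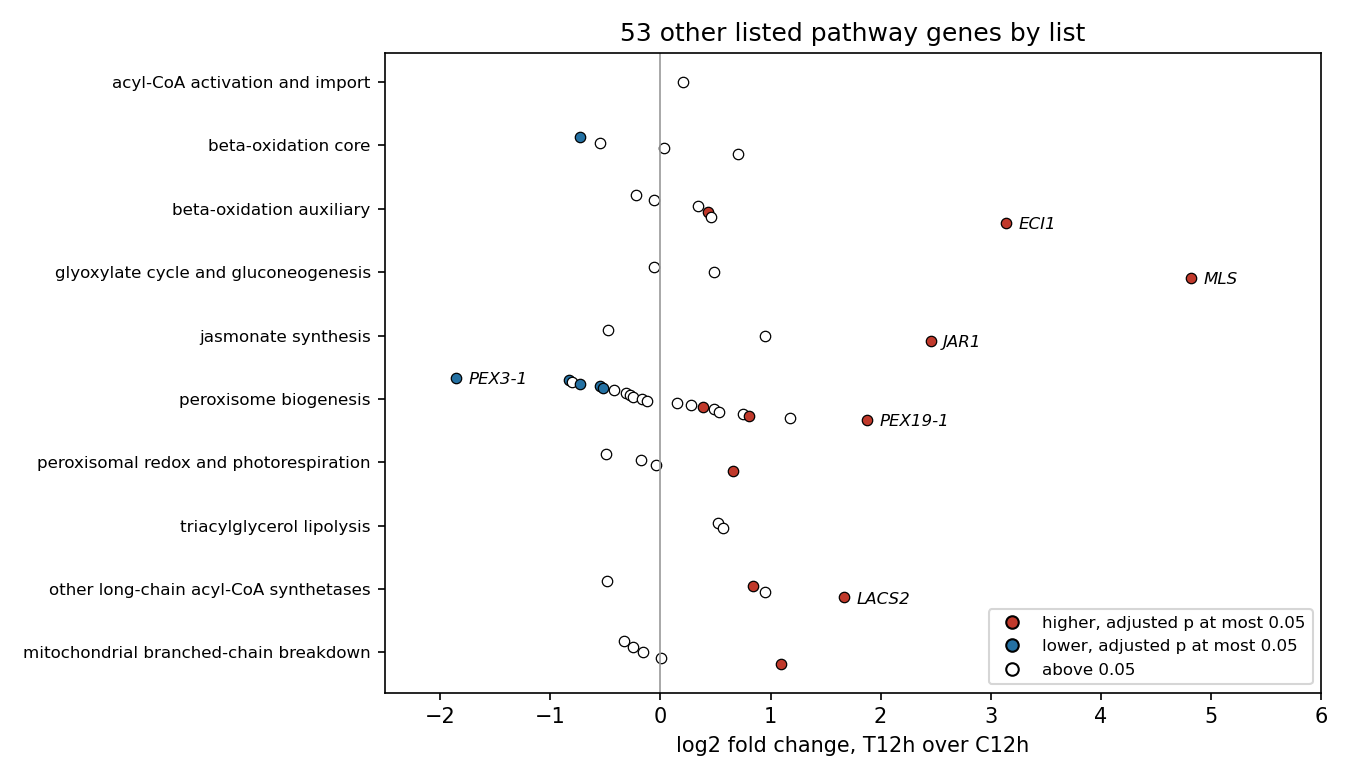
Log2 fold change of T12h over C12h (horizontal axis) for the 53 other listed genes, by list, with red points for genes that rose, blue points for genes that fell and open points for the others (limma, threshold of 0.05 on the adjusted p). Names mark called genes with a log2 fold change above 1.5 in size. Among the core enzymes no point is red and 1 is blue (PKT4), MLS is farthest to the right at 4.82 and PEX3-1 farthest to the left at -1.86.

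The other core enzymes showed no common direction. Of 4 tested, 1 fell between T12h and C12h (25%, beside 12.3% of all tested genes) and none rose (beside 11.7%). PKT4 (LOC110813975), a thiolase that cuts the chain at the end of each round, fell, with 9045, 13160 and 8193 normalized counts in T12h A, B and C, against 16290, 15180 and 18060 in C12h A, B and C (log2 fold change -0.73, SE 0.25, limma adjusted p = 0.048, lower in 3 of 3 harvests). Its call was lost without each of C12h A, B and C and T12h A and C, with adjusted p of 0.0688 to 0.164. AIM1 (LOC110816206), the other multifunctional protein, had 6967, 8889 and 10610 normalized counts in T12h A, B and C, against 6349, 5213 and 4580 in C12h A, B and C (log2 fold change 0.71, SE 0.34, limma adjusted p = 0.136). As for MFP2, the C12h libraries of AIM1 were below all C0h libraries, which had 8861, 7442 and 9744. The same held for 10.4% of all tested genes. ACX4, an oxidase of short chains, and KAT5, another thiolase, had log2 fold changes of 0.03 and -0.55 (limma adjusted p = 0.895 and 0.508).

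Of the 6 auxiliary enzymes tested, ECI1 and IBR3 rose between T12h and C12h (33.3%, beside 11.7% of all tested genes), and none fell (beside 12.3%). ECI1 (LOC110824170), an isomerase that moves double bonds of unsaturated chains so that they can enter the cycle, had 1035, 1304 and 1579 normalized counts in T12h A, B and C, against 67.08, 416.3 and 108.8 in C12h A, B and C. The groups were far apart, with a log2 fold change of 3.14 (SE 0.60, limma adjusted p = 0.00682, and 0.000372 to 0.0385 over the alternatives). Unlike ACX2, ECI1 was low again after the gas was removed, with 350.9, 79.48 and 118.8 in T24h A, B and C, against 101.7, 119.2 and 175.3 in C24h A, B and C (log2 fold change 0.21, limma adjusted p = 0.873). T24h was lower than T12h by a log2 fold change of -3.10 (limma adjusted p = 0.0162), a call lost without T12h B (0.0684), T12h C (0.0643) or T24h B (0.089) and on 13 libraries with edgeR (0.298) and DESeq2 (0.0519). For ECI1 the effect at 24 h less that at 12 h was -2.93, which did not pass over all genes (limma interaction, unadjusted p = 0.00406, adjusted p = 0.243).

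IBR3 (LOC110815047), a dehydrogenase that acts on an auxin precursor in Arabidopsis, rose by a log2 fold change of 0.43 (SE 0.14, limma adjusted p = 0.0393), with 1533 to 1865 normalized counts in T12h and 1218 to 1344 in C12h. This call was lost in 10 of 20 alternatives, with adjusted p of 0.0899 to 0.128 without each of C12h A, B and C and T12h B and C, and the log2 fold change was 0.07 with quantile normalization. SDRB, ECH2, ECHIA and AAE7 had log2 fold changes of 0.46, 0.35, -0.06 and -0.23 and limma adjusted p of 0.109, 0.114, 0.789 and 0.731. These are enzymes for unsaturated chains, hydratases, and an enzyme that activates acetate.

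**Figure D4:**
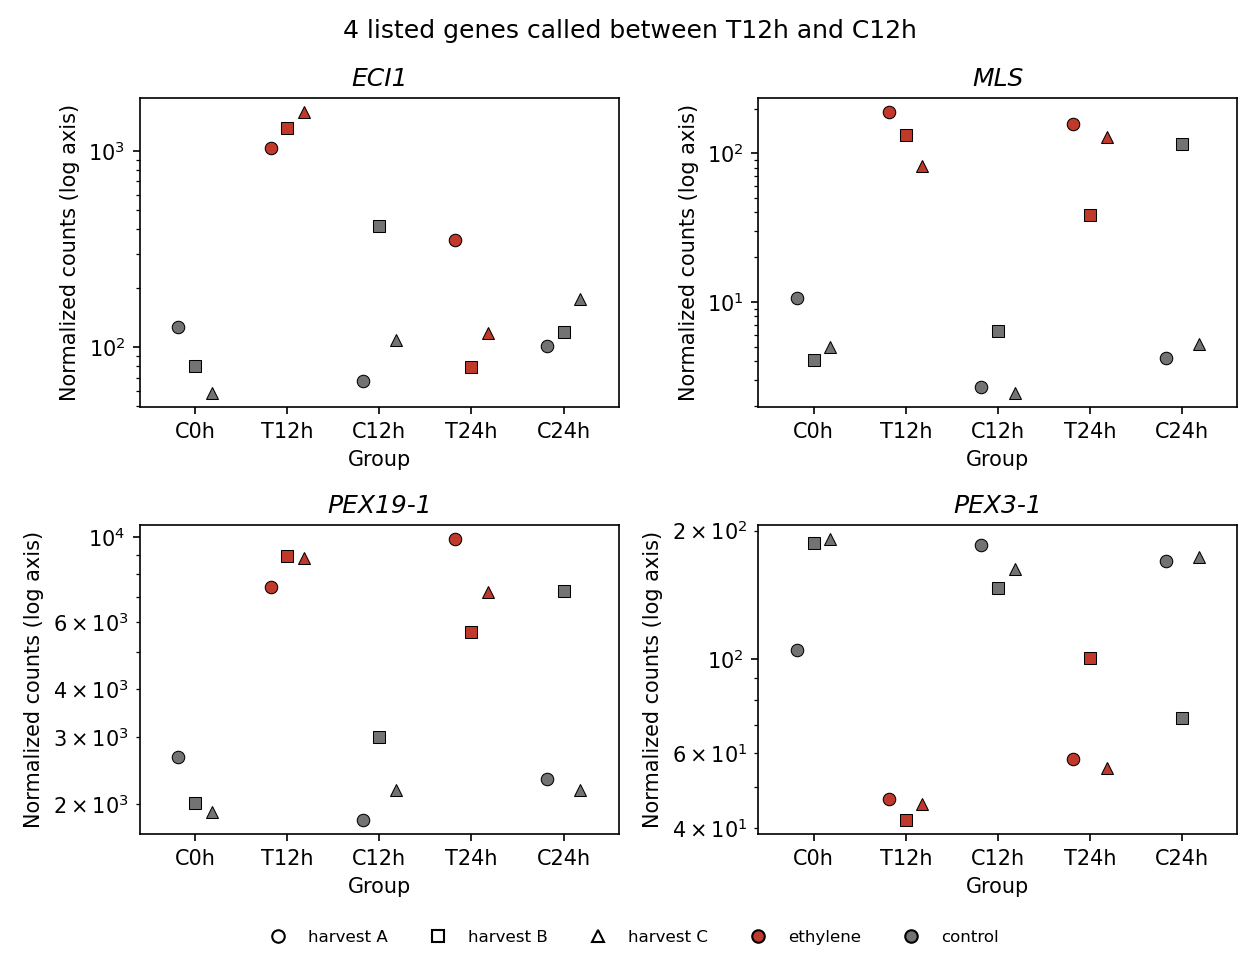
Normalized counts (log axes) of ECI1, MLS, PEX19-1 and PEX3-1 in each library, with symbols for harvests, red for ethylene and grey for controls. ECI1 is highest in T12h and low again in T24h, while the other 3 genes keep the T12h difference in T24h A and C, and in C24h B they lie toward the treated libraries.

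MLS (LOC110823057), the malate synthase that uses the acetyl-CoA released by beta-oxidation in the glyoxylate cycle, had 189.4, 133.2 and 82.19 normalized counts in T12h A, B and C, against 2.683, 6.391 and 2.435 in C12h A, B and C. The C12h values stand for 3, 7 and 3 reads. Its log2 fold change was 4.82 (SE 0.94, limma adjusted p = 0.00702, and 9.89e-05 to 0.0373 over the alternatives), on a scale with 1 added that understates the change of a gene at so few reads. In T24h it had 157.3, 38.23 and 129.2 in A, B and C, against 4.195, 114.7 and 5.206 in C24h A, B and C, so that C24h B again lay with the treated libraries. The peroxisomal malate dehydrogenases PMDH1 and PMDH2, also on that list, had log2 fold changes of -0.05 and 0.49 (limma adjusted p = 0.812 and 0.549). Isocitrate lyase, the partner of malate synthase, was listed as ICL and had a mean below 5 normalized counts.

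Of 21 tested genes for the making and upkeep of peroxisomes, 3 rose and 5 fell between T12h and C12h, or 14.3% and 23.8%, beside 11.7% and 12.3% of all tested genes. PEX19-1 (LOC110815952), a chaperone that carries membrane proteins to the peroxisome, had 7400, 8921 and 8838 normalized counts in T12h A, B and C, against 1814, 3001 and 2172 in C12h A, B and C (log2 fold change 1.87, SE 0.38, limma adjusted p = 0.00764, and 0.00012 to 0.0415 over the alternatives). PEX3-1 (LOC110823448), its docking partner on the membrane, went the other way, with 46.79, 41.75 and 45.54 in T12h A, B and C, against 185.1, 147 and 162.4 in C12h A, B and C (log2 fold change -1.86, SE 0.34, limma adjusted p = 0.00592, and 0.000133 to 0.0345 over the alternatives). The 2 partners thus changed in opposite directions, and T12h and C12h did not overlap for either. Among all tested genes, 26.3% were higher and 26.1% lower without overlap in this comparison. PEX4, a ubiquitin-conjugating enzyme for recycling the import receptor, had a log2 fold change of 0.81 (limma adjusted p = 0.0179) and LON2, a protease of the matrix, one of -0.83 (limma adjusted p = 0.0153). Both calls were lost without C12h A (0.0784 and 0.0586) and without C12h C (0.0569 and 0.0673), that of PEX4 also without T12h C (0.0683) and that of LON2 also without T12h B (0.0542).

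On the lists for jasmonate, redox, lipolysis, other LACS genes and branched-chain breakdown, 5 of 18 tested genes rose between T12h and C12h (27.8%, beside 11.7% of all tested genes) and none fell (beside 12.3%). JAR1 (LOC110810413), which joins jasmonate to isoleucine, had 1288, 875.8 and 715.2 normalized counts in T12h A, B and C, against 142.2, 282.1 and 120.1 in C12h A, B and C (log2 fold change 2.46, SE 0.58, limma adjusted p = 0.0128, but 0.0552 without C12h A and 0.06 without C12h C). IVD (LOC110808552), a mitochondrial enzyme of leucine breakdown, rose by a log2 fold change of 1.09 (SE 0.27, limma adjusted p = 0.0144, but 0.0619 without C12h A and 0.0546 without C12h C). Of 4 other synthetases of the LACS family that were tested, LACS4 and LACS2, which in Arabidopsis serve other membranes and the cuticle, rose by log2 fold changes of 0.84 and 1.67 (limma adjusted p = 0.0161 and 0.0407). Leaving out C12h A, C12h C, T12h B or T12h C ended both calls, with adjusted p of 0.0504 to 0.0682 for LACS4 and of 0.113 to 0.156 for LACS2. LACS8 and LACS9 had log2 fold changes of -0.48 and 0.95 (limma adjusted p = 0.133 and 0.205). MDAR4, a monodehydroascorbate reductase that helps to remove hydrogen peroxide at the peroxisome membrane, rose by 0.66 (SE 0.21, limma adjusted p = 0.0375), a call lost in 10 of 20 alternatives at up to 0.198, among them without C12h A or C and without T12h A, B or C. Against C0h its rise in T12h was 1.02 (limma adjusted p = 0.00775) and held in all 20.

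Against the start fruit, 8 of the 53 listed genes rose and 5 fell in T12h (11.8% and 12.2% of all tested genes), and 9 rose and 2 fell in T24h (8.12% and 7.52% of all tested genes). The 13 calls in T12h became 6 without C0h B or C0h C, 7 without T12h B and 8 without T12h C. The 11 calls in T24h became 0 without C0h C, 1 without C0h B or T24h A, and 7 without C0h A or T24h C. Calls over all tested genes shrank in the same fits. In T12h, 1804 rose and 1860 fell, and calls became 1480 without C0h B and 810 without C0h C. They became 2007 without T12h B and 1726 without T12h C. In T24h, 1240 rose and 1148 fell, and calls became 0 without C0h C and 503 without C0h B. They became 188 without T24h A, 2034 without C0h A and 1602 without T24h C. Between T24h and T12h, 3 rose and 3 fell (3.21% and 2.31% of all tested genes), a count of 6 that became 0 without T12h B, T12h C or T24h B. Over all tested genes 490 rose and 352 fell there, and calls became 69, 119 and 36 in the same fits. ECI1 was among the listed genes that fell, as given above. None of the 53 was called between T24h and C24h with limma, where 0% of all tested genes rose and 0% fell, and edgeR and DESeq2 on 13 libraries also called none, while 16 had an unadjusted p under 0.05. Over all tested genes 2843 had an unadjusted p under 0.05 in limma, and on 13 libraries edgeR called 0 and DESeq2 called 116. Without C24h B, 15 of the 53 rose and 1 fell between T24h and C24h (limma), beside 12.1% of all tested genes that rose and 11.4% that fell. Those called then included MLS at a log2 fold change of 4.04 (limma adjusted p = 0.00113), PEX19-1 at 1.72 (0.00111), AIM1 at 1.08 (0.0206) and, as the only one lower, PEX3-1 at -1.31 (0.00846). The C24h group held 2 libraries in that fit and borrowed its spread from the other groups. C24h B had been singled out because it lay near the treated libraries in several of these genes. Leaving it out thus favours larger differences, and these adjusted p-values are no independent evidence for them.

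Markers of other tissues were checked in the same libraries. Of the seed markers, where the pathway is best known, 3 were found and none passed 1 normalized count (0 in T12h, T24h and C12h). Markers of ripening pulp, 6 genes listed by symbol for carotenoid and ethylene synthesis, were all detected. The match of ACO1 to ethylene synthesis rests on its symbol alone and was not checked. Summed levels of the 6 genes were 20830 to 25920 in T12h and 17470 to 20740 in C12h, and 26210 to 36250 in T24h and 15940 to 26450 in C24h. PDS3 and ZDS gave most of these counts, and the 6 genes did not move together, with T12h over C12h at 0.64 for PSY, 0.46 for PDS3, 0.20 for ZDS, -0.11 for ACO1, -0.62 for CRTISO and -0.85 for LYC (log2 fold changes, limma adjusted p of 0.0578 to 0.634). Markers of green tissue, 8 genes, summed to 103.3 to 217.3 in T12h and 325 to 646.6 in C12h. PSBO1 had the highest means of them, at 85.08 in T12h and 279.8 in C12h (log2 fold change -1.85, limma adjusted p = 0.0752). All 7 tested genes had a negative log2 fold change. Only LHCA1 was called, at -1.08 (limma adjusted p = 0.0414), beside 12.3% of all tested genes that fell. Markers of the peel, 5 genes of which ML1 and WIN1 gave nearly all counts, summed to 6010 to 7156 in T12h and 4482 to 5295 in C12h. The other peel markers were near the floor. PDF1, GPAT6 and CER3 had means of 0.3702, 1.483 and 5.112 in T12h, and of 0.2981, 0.2706 and 1.82 in C12h. The fruit had been peeled, and whether any peel RNA was present was not tested. ML1 was higher in T12h (log2 fold change 0.56, limma adjusted p = 0.0346) and WIN1 was at -0.04 (limma adjusted p = 0.841). XCP1, the only gene found of the symbols listed for latex, had 16.71 to 31.1 in T12h and 4.059 to 8.049 in C12h. It was not called (log2 fold change 1.655, limma adjusted p = 0.15). It was matched by symbol only, and whether it marks latex in papaya was not tested. The part of these shifts in the values of ACX2 and MFP2 was not tested.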

How the data were processed

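Reads of pulp mRNA (stranded, paired-end) were cleaned, aligned to Papaya1.0 with STAR and normalized with DESeq2 by the authors, and the counting tool is not given in the sources used here. The deposited signal values are the authors' gene counts scaled by a size factor per library. Each library's values were multiples of 1 step (tolerance 0.001), and reads were recovered from the steps in 13 libraries. T12h B and T24h B, whose step is close to 1, were left out of tests on reads.

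The comparison of groups used limma 3.58.1 in R 4.3.3 (trended variance) on log2 values after adding 1, over 15270 genes with a mean of at least 5 (1846 of 20332 genes were at 0 throughout), all 5 groups in 1 fit, with p-values adjusted by Benjamini and Hochberg over these genes. Fold changes are 2 to the power of the log2 fold change. A listed gene "rose" or "fell" at an adjusted p of at most 0.05. P-values measure the spread between pools. The interaction is the effect at 24 h less that at 12 h.

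The 3 genes and all lists were chosen with earlier results of these data known. Named were the 3 genes, all found genes for core and auxiliary beta-oxidation and for the steps before it (1 result is not reported here), up to 4 genes of each other list called between T12h and C12h, and the 5 genes most like each member by Pearson r. Genes named beyond that (PMDH1, PMDH2, ICL, LACS8, LACS9, markers, and those of the closing section) were picked with their values in view. Gene symbols were taken from the reference table of another assembly, which gave names only (17406 of 19817 LOC identifiers matched). Coordinates and sequences were not analysed here.

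The harvest letter in the labels pairs libraries across groups, but once group means were removed libraries of the same harvest were no more alike (median r -0.0351, n = 30 pairs) than others (-0.0187, n = 60). Alternatives were another filter (none, or a minimum mean of 50), other pseudocounts (0.5 and 5), TMM and quantile normalization, harvest as a block, quality weights, only the groups compared, each library left out, and edgeR 4.0.16 and DESeq2 1.42.0 on 13 libraries. Equal library totals, limma on 13 libraries, and the interaction and correlations without C24h B were added after seeing the data.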

Additional observations from a re-analysis of the deposited data

How the results depend on the processing

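Of the log2 fold changes of ACX2, MFP2 and LACS7 over 5 comparisons and the alternatives, 287 of 297 stayed within the spread of replicates and 10 did not. The 287 include values that could not move by design. The other filters, the harvest block and fits of only the groups compared leave these fold changes as they are. So does leaving out C24h B where C24h is not compared. With quantile normalization MFP2 was 0.19 for T12h over C12h, -0.16 for T12h over C0h and 0.46 for T24h over C0h. With equal library totals MFP2 was 0.55 for T24h over C0h, and LACS7 was -0.28 for T12h over C12h, -0.33 for T24h over C24h, 0.27 for T12h over C0h and 0.22 for T24h over C0h. Under that scaling the median log2 fold change of all tested genes, otherwise between -0.02 and 0, was -0.34, -0.33, -0.27, -0.40 and -0.14 in T12h over C12h, T24h over C24h, T12h over C0h, T24h over C0h and T24h over T12h. Among all tested genes the split of higher and lower calls became 964 and 3195 in place of 1791 and 1884 for T12h over C12h, 1056 and 2554 in place of 1804 and 1860 for T12h over C0h, 615 and 2874 in place of 1240 and 1148 for T24h over C0h, and 208 and 393 in place of 490 and 352 for T24h over T12h. Leaving out single libraries gave 0.68 to 1.91 for ACX2 and 0.48 to 1.24 for MFP2 in T24h over C24h, with the highest values without C24h B.

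Of the counts of listed genes, 70 of 99 stayed within 1.5 times the reported ones. Leaving out single libraries gave 4 to 22 calls for T12h over C12h, 0 to 16 for T24h over C24h, 6 to 19 for T12h over C0h, 0 to 16 for T24h over C0h and 0 to 8 for T24h over T12h. Calls over all tested genes moved widely too, at 843 to 5188, 0 to 3602, 810 to 5068, 0 to 4092 and 36 to 1605 in that order. Library quality weights gave 29, 19 and 26 calls for T12h over C12h, T24h over C24h and T12h over C0h, and 6762, 4950 and 7007 over all tested genes. On 13 libraries edgeR gave 7, 8, 6 and 0 for T12h over C12h, T12h over C0h, T24h over C0h and T24h over T12h, limma gave 8, 8 and 0 for T12h over C12h, T12h over C0h and T24h over T12h, and DESeq2 gave 1 for T24h over T12h. In the same order, the calls over all tested genes were 1578, 1910, 1078 and 0 with edgeR, 1875, 2024 and 1 with limma, and 183 with DESeq2. With no filter T24h over C0h had 6, and 1593 over all genes. The cause was not tested. PEX13, called higher in T12h than in C12h at 0.39, had -0.003 with quantile normalization (limma adjusted p = 0.989, against 0.0047 to 0.989 over the alternatives).

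With the harvest as a replicate block the listed calls were 16, 0, 12, 9 and 6 for T12h over C12h, T24h over C24h, T12h over C0h, T24h over C0h and T24h over T12h. Calls over all tested genes were 3527, 0, 3434, 2185 and 669 in that order. The block cannot change the fold changes of ACX2, MFP2 and LACS7, because each harvest gave 1 library to each group. Only the SEs can differ, and that of ACX2 was 0.49 in place of 0.51. LACS7 rests on 74 to 178 reads in the 13 libraries with recovered reads, the fewest of the 3 genes.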

Other observations

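Several listed genes that had not been called between T12h and C12h were called between T24h and T12h, and are named here after their values were seen. LACS9 (LOC110813520), a long-chain acyl-CoA synthetase of the plastid envelope in Arabidopsis, had 4132, 4474 and 1692 normalized counts in T24h A, B and C, against 792.2, 618.3 and 932.9 in T12h A, B and C and 440.5, 340.1 and 259.5 in C0h A, B and C. Its log2 fold change was 3.21 against C0h (limma adjusted p = 0.0105, but 0.0585 without C0h C) and 2.03 against T12h (limma adjusted p = 0.0457, lost in 10 of 20 alternatives at up to 0.397, among them without T12h A, B or C and T24h A or B). OPR3, a reductase of jasmonate synthesis, and SDP1, a lipase of stored oil in Arabidopsis, were lower in T24h than in T12h by log2 fold changes of -1.60 and -0.95 (limma adjusted p = 0.0222 and 0.0227). Both calls were lost without T12h B (0.107 and 0.0811), T12h C (0.0718 and 0.0621) or T24h B (0.116 and 0.0899), and that of SDP1 also without T12h A (0.064) and T24h C (0.0566). In all, OPR3 lost its call in 7 of 20 alternatives and SDP1 in 9 of 20. Among these were edgeR, DESeq2 and limma on 13 libraries, with the highest adjusted p, 0.336 and 0.252, from edgeR. OPR3 and SDP1 had their highest means in T12h, at 773 and 1930, against 392.6 and 1324 in C12h. Between T24h and C24h, LACS9, OPR3 and SDP1 had log2 fold changes of 2.27, -0.92 and -0.115, and none was called (limma adjusted p = 0.182, 0.208 and 0.792).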
